A study of Drosophila melanogaster with 11 samples.

Results

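The cells described here are wing disc epithelial cells that hold transcripts of 4 little-studied genes, CG34247, CG13053, CG13023 and CG14598. They were chosen by a rule on UMIs, the unique molecular identifiers that mark single captured transcripts in Drop-seq, a droplet method of single-cell RNA sequencing. In each of 8 wild-type libraries, a barcode with 200 to 2500 detected genes was taken as epithelial when it held at least 2 UMIs of the epithelial genes Fas3, grh, ImpE1 and ImpE2 together, and more than 2 times as many as of the myoblast genes Him, zfh1, twi and CG9650. An epithelial cell with at least 2 UMIs of the 4 genes was a member, and an epithelial cell with 0 UMIs of all of them served as a comparison cell of the same library. By this rule 469 cells were members, of 10186 epithelial cells and 22041 cells in all. The comparison group held 9240 cells, and 477 epithelial cells with exactly 1 UMI were in neither.

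The study profiled wing discs of larvae at the wandering stage of the last instar kept at 25 °C, from which the pouch was cut away, so that the notum and the hinge with their adhering myoblasts remained. Wild type comprised 4 libraries of 1151-GAL4 (replicates 1 to 4), the driver line alone, and 4 of 1151>mCherry-RNAi (replicates 5 to 8), in which the driver expressed the VALIUM20-mCherry hairpin from the attP2 site. Of the 11 libraries in all, the other 3, labelled 1151>Ama-RNAi (replicates 1, 4 and 5), carried the hairpin TRiP.Ama_HMS00297 at attP2 against Amalgam. All larvae thus carried P{1151-GAL4}, which drives expression in the myoblasts and not, as far as the study describes it, in the epithelium. Discs of several larvae went into a library. Nothing in the labels gives the sex of the larvae or says that libraries were independent cultures. The p-values therefore hold for these libraries only, and the spread between them may in part be technical.

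The wing disc epithelium is a single folded sheet in which the future notum, hinge and wing blade are laid out side by side by transcription factors such as the Iroquois proteins of the lateral notum, vg of the wing and the hinge genes zfh2 and hth. Wingless, Decapentaplegic and Hedgehog signals set up these regions. Within the sheet, Notch signalling through Delta, the E(spl) repressors and the Bearded proteins singles out sensory organ precursors from proneural clusters. None of the 4 genes has a function that can be named here.

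Wild-type libraries held between 1335977 and 10548893 UMIs, with 1151-GAL4 replicates 3 and 4 the deepest. These 2 libraries gave 133 and 189 of the members, and the other 6 gave between 13 and 30 each. Members were deeper than comparison cells, with a median of 1806 against 854 UMIs and of 702 against 426 genes. The median share of mitochondrial UMIs was 2.89% in members and 3.07% in comparison cells, and that of heat shock UMIs 2.26% and 2.25%. At least 1 UMI of the 4 myoblast genes was held by 63 members (13.4%) and by 8.13% of comparison cells. No doublet caller was run, and 28 members, all of 1151-GAL4 replicates 3 and 4, had a barcode 1 base away from a deeper barcode of the same library. Of the 28 pairs of wild-type libraries, 9 shared any barcode, and no pair shared more than 3.

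Markers of other cells were summed per library and class, in raw CPM (UMIs of a gene per 1000000 UMIs of the class) per library. The 5 tracheal markers summed to between 112 and 417 CPM in members (median 197) and to between 147 and 294 CPM in comparison cells (median 243), higher in members in 2 of 8 libraries. The FGF receptor gene btl of tracheal cells had 0 UMIs in members and 47 in comparison cells, and trh had 3 and 151. The 4 blood cell markers found in the files reached at most 59.0 CPM in members (median 7.004) and 11.8 CPM in comparison cells (median 8.50), with NimC1 at 0 and 8 UMIs, and the 3 fat body markers at most 11.9 and 4.63 CPM. Neuron and glia markers summed to between 58.5 and 223 CPM in members (median 90.6) and to between 46.3 and 132 CPM in comparison cells (median 91.1), higher in members in 6 of 8 libraries. Myoblast markers that the rule did not use (Mef2, Ama, BM-40-SPARC, babos and trol) summed to a median of 251 CPM in members and 323 CPM in comparison cells and were higher in members in 1 of 8 libraries. The 8 sensory organ precursor markers other than sca summed to between 134 and 340 CPM in members (median 229) and to between 116 and 212 CPM in comparison cells (median 170), higher in members in 7 of 8 libraries. Pooled over libraries, each of the 8 was higher in members, among them the defining genes sens with 7.34 against 1.74 CPM (10 and 23 UMIs) and ase with 2.93 against 0.757 CPM (4 and 10 UMIs). Peripodial markers (Idgf4, drm, Antp and Ubx) had medians of 424 and 355 CPM and were higher in members in 5 of 8 libraries, with pooled levels of 16.1 and 37.2 CPM for Idgf4 and of 10.3 and 21.3 CPM for Ubx. The part of these other cells in the results below was not tested, with 1 exception. A comparison below was also run on only the cells with 0 UMIs of the 4 myoblast genes.

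CG34247 and CG13053 are neighbours. In the Ensembl annotation of BDGP6, the build the study used, CG13053 (FBgn0040801) lies at 3L:16259037-16259722 and CG34247 (FBgn0085276) at 3L:16261185-16261605, both protein-coding, both on the minus strand, 686 and 421 bases long and separated by 1462 bases with no other protein-coding gene between them. CG13023 (FBgn0036677) lies on the same arm and strand at 3L:16923914-16927434, which is 662308 bases from CG34247, and CG14598 (FBgn0037503) on the plus strand at 3R:7439760-7441976. Because CG34247 and CG13053 are short genes next to each other, the genes around them were also examined, 10 on each side. Of these 20 genes, 11 had any UMI in members, none exceeded 49.9 CPM, and 2 (PDCD-5 and MED10) were high enough to be tested, neither of which passed the test described below.

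The 4 genes were unequal in members, and because they chose the members, their values are a description. In raw CPM, CG34247 lay between 473 and 2429 across the 8 libraries (median 1290) and CG13053 between 624 and 2254 (median 1319). CG13023 lay between 166 and 963 (median 355) and CG14598 between 87.8 and 435 (median 158). Counts are of 3′ ends and are not set against gene length, so the levels of different genes are given side by side only. Of the members, 44.6% held CG34247, 66.3% CG13053, 29.9% CG13023 and 26.2% CG14598.

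Transcripts of CG34247 were concentrated in few cells. A single member held 238 of its 1902 UMIs in members, and the 10 members with the most held 42.9% of them. For CG13053 the highest cell had 75 UMIs and the top 10 members 21.0% of all, for CG13023 30 UMIs and 29.7%, and for CG14598 5 UMIs and 19.2%. Members contained 94.6% of all epithelial UMIs of CG34247, 92.0% of those of CG13053 and 90.9% of those of CG13023, but 59.3% of those of CG14598, of which the rest lay in cells with a single UMI of the 4 genes. The total over the 4 genes was exactly 2 UMIs in 146 members (31.1%), 3 to 9 UMIs in 205 and 10 or more in 118, with a median of 4 and a maximum of 260.

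In droplet data, free RNA can place a transcript in a cell that does not express it, and myoblasts served as the reference for this. CG34247 was found in 3.12% of epithelial cells and 0.370% of the 5135 myoblast cells, CG13053 in 4.66% and 0.545%, CG13023 in 1.97% and 0.331%, and CG14598 in 2.61% and 0.0974%. Median depths were 895 UMIs in epithelial and 822 UMIs in myoblast cells. With every cell thinned to 400 UMIs and shallower cells left out, the shares were 1.59% and 0.109% for CG34247, 2.47% and 0.195% for CG13053, 0.989% and 0.174% for CG13023, and 1.07% and 0.0434% for CG14598. Each gene was thus several times more frequent in epithelial cells at equal depth.

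The label of these cells, epithelial cells with CG34247 and CG13053, held for part of them. Both genes were found in 170 members (36.2%), 1 of them in 180 and neither in 119. A single gene of the 4 was found in 224 members, 2 genes in 184, 3 genes in 53 and all 4 in 8. The most frequent combinations were CG34247 with CG13053 in 111 members, CG13053 alone in 87 and CG13023 alone in 76, while CG34247 with CG13023 and neither of the other 2 was found in 2. CG14598 alone was found in 32.

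**Figure D1:**
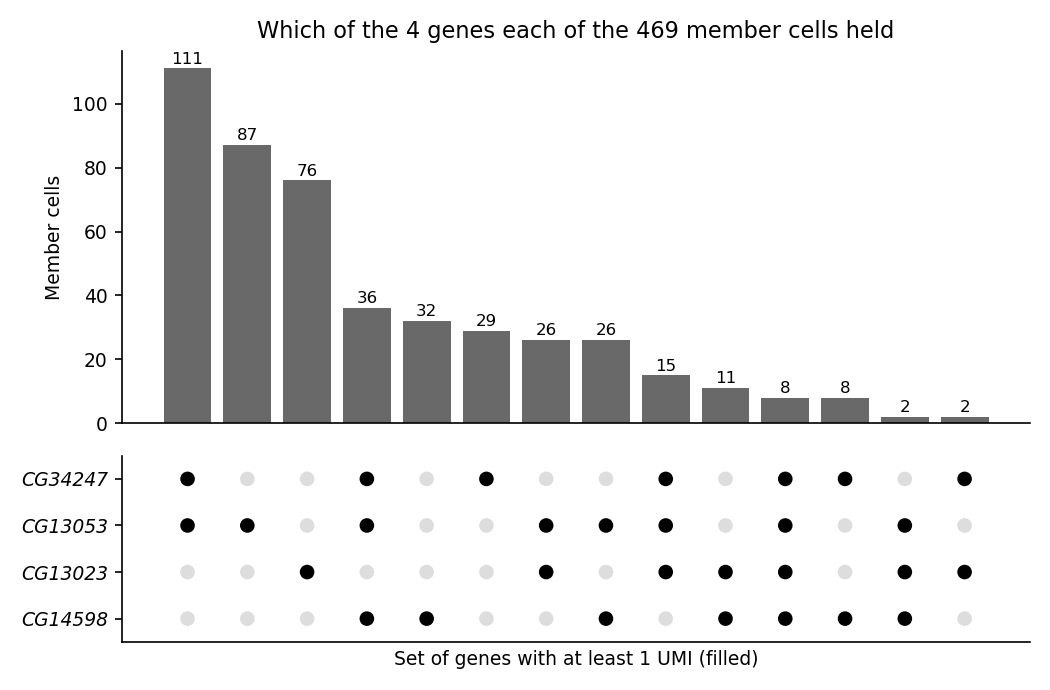
Number of member cells (y axis) for each combination of the 4 genes of which at least 1 UMI was found, marked by filled dots under each bar, over all 469 members. CG34247 with CG13053 (111 cells), CG13053 alone (87) and CG13023 alone (76) were the most frequent of the 14 combinations.

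CG34247 and CG13053 were found together far more often than either was found with CG13023. In epithelial cells thinned to 400 UMIs, CG13053 was present in 46.2% of the 143 cells with CG34247 and in 1.76% of those without, higher with CG34247 in 8 of 8 libraries. CG13023 was present in 5.59% of the cells with CG34247, which are 8 cells, and in 0.914% of those without. It was present in 5.86% of the 222 cells with CG13053 and in 0.866% of those without, higher in 5 of 8 libraries. These are shares over cells of the same libraries and are given as a description.

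The question addressed next was which other genes distinguish members from comparison cells. UMIs were summed per library and class, and the sums were compared with edgeR's quasi-likelihood test with the library as a block. This test shares information on spread across genes, so its p-values are no measure of a gene's own spread between libraries. Genes that did not move alike in every library could thus be called, and the number of libraries is given beside many of them. Levels below are CPM scaled by TMM factors, given as the lowest, median and highest of the 8 libraries. These CPM are taken over the UMIs of the genes tested in a comparison, not of all genes. A comparison with fewer genes tested is thus on a higher scale. Its levels cannot be set beside raw CPM or the levels of another comparison. Of 3634 genes tested, 114 were called at an adjusted p below 0.05 (Benjamini-Hochberg over all genes tested), which is 3.14% of genes, 56 of them higher (1.54%) and 58 lower (1.6%) in members. The median log2 fold change of all genes was -0.04.

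The secreted protein Phk-3, a pherokine, gave the clearest difference. Its level was 305, 1153 and 2535 CPM in members and 165, 353 and 627 CPM in comparison cells. Members were higher in 8 of 8 libraries, although members of the lowest library lay within the range of the comparison cells. The log2 fold change was 1.82 ± 0.09 (SE), or 3.53-fold (edgeR adjusted p = 1.06e-87). Thinned to 400 UMIs, 34.8% of members and 10.4% of comparison cells held Phk-3. CG10625, for which no function is named here, followed with 273, 641 and 873 CPM against 108, 172 and 282 CPM. It was higher in members in 8 of 8 libraries with a log2 fold change of 1.68 ± 0.10 (edgeR adjusted p = 2.93e-61).

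Several genes that encode transcription factors were also called higher. The GATA factor grn stood at 577, 967 and 1919.6 CPM in members and at 251, 392 and 796 CPM in comparison cells. It was higher in 8 of 8 libraries, and the highest comparison value lay within the range of the members (log2 fold change 1.31 ± 0.09, edgeR adjusted p = 4.59e-48). The BTB zinc finger gene mamo stood at 649.6, 1926 and 5606 CPM against 344, 862 and 2193 CPM (1.15 ± 0.08, adjusted p = 4.86e-46) and was higher in 7 of 8 libraries, 1151>mCherry-RNAi replicate 7 being the exception. The wing selector gene vg stood at 237, 339 and 742 CPM against 82.1, 153 and 364 CPM, higher in 8 of 8 libraries (1.29 ± 0.11, adjusted p = 6.67e-29). Both paralogous homeobox genes E5 and ems were called higher, E5 with 41.2, 63.0 and 376 CPM against 19.8, 25.9 and 46.6 CPM (1.56 ± 0.23, adjusted p = 3.48e-09) and ems close to the threshold (0.74 ± 0.23, adjusted p = 0.0498). The homeobox gene ct rose by 1.01 ± 0.16 on the log2 scale (adjusted p = 8.38e-08), in 6 of 8 libraries. The top 10 members held 14.6% of the UMIs of grn, 26.7% of mamo, 35.6% of vg, 36.3% of E5 and 49.0% of ct. Thinned to 400 UMIs, vg was found in 12.3% of members and 5.43% of comparison cells, and ct in 4.04% and 2.34%.

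Also higher in members in every library were the serine protease gene Sb, called Stubble (144, 454 and 1059.8 CPM against 125, 283 and 552 CPM, log2 fold change 0.74 ± 0.10), the noncoding CR42862 (0.61 ± 0.10), CG41520 (1.26 ± 0.26, 64 UMIs in members), CG32486 (0.93 ± 0.21) and CG7702 (0.59 ± 0.16). The transmembrane protein gene tinc, with 77 UMIs in members, was higher in 7 of 8 libraries (1.41 ± 0.25). The Notch ligand Dl was also higher in 8 of 8 libraries, with 876, 1004 and 1500.5 CPM against 699.8, 737 and 1002 CPM (0.48 ± 0.08, edgeR adjusted p = 1.77e-06).

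**Figure D2:**
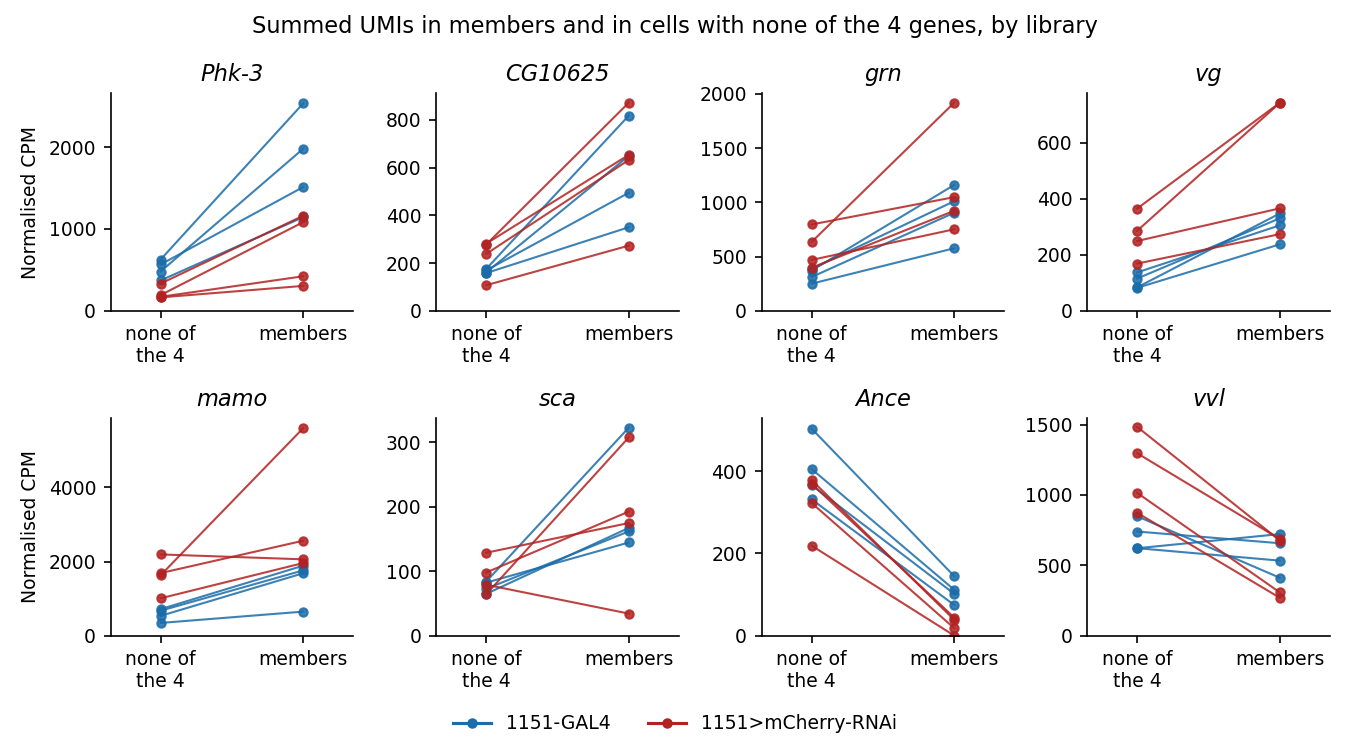
TMM-scaled CPM (y axes, from 0) of summed UMIs in comparison cells (none of the 4 genes) and members, with each line joining both classes of a library, 4 of 1151-GAL4 and 4 of 1151>mCherry-RNAi. Phk-3, CG10625, grn and vg rose in 8 of 8 libraries, Ance fell in 8 of 8 without overlap, and mamo, sca and vvl each had 1 library that moved the other way. CPM are taken over the UMIs of the genes tested, not of all genes.

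The genes that were lower in members included markers of several other regions. Ance, an angiotensin-converting enzyme homologue, stood at 0, 59.0 and 144 CPM in members and at 219, 368 and 503 CPM in comparison cells. All 8 libraries were lower and the ranges did not overlap (log2 fold change -2.04 ± 0.14, edgeR adjusted p = 9.67e-44). The zinc finger gene rn did not overlap either, with 0, 12.02 and 21.8 CPM against 28.7, 38.0 and 57.0 CPM (-2.38 ± 0.40, adjusted p = 3.07e-07), on 10 UMIs in members. The same held for Tsp, which encodes thrombospondin (-1.72 ± 0.35), and for CG17124 (-1.52 ± 0.31). CG17278 fell by 1.97 on the log2 scale (SE 0.23), and the titin gene sls by 0.96 (SE 0.18), both in 8 of 8 libraries. Also lower in every library were Gasp, a chitin-binding protein gene (-1.32 ± 0.37, 16 UMIs in members), dpp, CR43264 and Ssb-c31a. Ance, rn, Tsp and CG17124 were the only 4 of the 114 called genes whose ranges did not overlap. This count covers called genes only, with no share over all genes tested beside it. For a low gene such as rn, values at or near 0 in libraries with few members rest on few UMIs.

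Lists of genes by pathway or region were examined with their counts, and medians are log2 fold changes beside the -0.04 of all genes. One list holds the markers of an epithelial cluster named ES_2, which the study took as most likely bristle precursors. Since the list was chosen on these same samples, it is no independent evidence of direction. All 41 of these markers were tested, of which 20 were higher and 0 lower (median 0.32). Among them were Phk-3, CG10625, grn and vg.

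The Bearded and E(spl) family, effectors of Notch, had 8 members tested, 5 higher and 0 lower (median 0.63). E(spl)m8-HLH, a repressor of proneural genes, stood at 19.2, 48.9 and 123 CPM against 6.78, 18.0 and 115 CPM (log2 fold change 1.66 ± 0.24, edgeR adjusted p = 1.96e-09), higher in 7 of 8 libraries. Of its 97 UMIs in members, 51.5% lay in 10 cells. Thinned to 400 UMIs, 2.54% of members and 0.739% of comparison cells held it. The Bearded family gene Ocho stood at 0, 73.4 and 127 CPM against 31.2, 36.3 and 50.2 CPM (1.24 ± 0.21), also in 7 of 8. E(spl)m7-HLH (1.02 ± 0.20) was higher in 5 of 8 libraries and E(spl)malpha-BFM (0.83 ± 0.16) in 6 of 8, so that these 2 moved less evenly, and E(spl)mbeta-HLH was called with the smallest change of the 5 (0.42 ± 0.10). Beside them, the sensory organ precursor markers were higher in members in 7 of 8 libraries, as given above.

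Of 11 proneural and sensory organ precursor genes tested, 2 were higher and 1 lower (median 0.21). The higher ones were sca, a secreted protein of proneural clusters, with 34.2, 171 and 322 CPM against 63.9, 80.5 and 128 CPM (log2 fold change 1.26 ± 0.14, edgeR adjusted p = 5e-16, 7 of 8 libraries), and cpo, an RNA-binding protein (1.16 ± 0.20, 6 of 8). The lower one was emc, an inhibitor of proneural proteins (-0.33 ± 0.10, 8 of 8 libraries lower). The proneural list therefore had called members in both directions. Of 13 Notch pathway genes tested, Dl was higher and none was lower, and N itself had a log2 fold change of 0.02 ± 0.08 (adjusted p = 0.980). Of 5 genes of the Irre cell recognition module, immunoglobulin proteins that sort cells by adhesion, hbs was higher (0.72 ± 0.16, adjusted p = 5.17e-04), and kirre and rst did not pass (0.39 ± 0.13 and 0.49 ± 0.18). None of 11 EGF receptor pathway genes was called (median 0.16).

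The region lists split. Of 19 hinge genes tested, 7 were higher, among them Phk-3 and grn, and 6 were lower, among them rn and nub. The POU factor nub stood at 0, 19.4 and 92.8 CPM against 49.7, 71.1 and 126 CPM (log2 fold change -1.59 ± 0.26, edgeR adjusted p = 2.17e-07). The zinc finger homeobox gene zfh2 was lower in 8 of 8 libraries, with 68.4, 102 and 174 CPM against 151, 188 and 227 CPM (-0.80 ± 0.15, adjusted p = 6.03e-06). Another POU factor, vvl, was lower in 7 of 8 libraries (-0.65 ± 0.09, adjusted p = 8.17e-10). The homeobox gene hth had overlapping levels and was lower in 5 of 8 libraries (-0.23 ± 0.07, adjusted p = 0.0369). Called genes of this list, named for the hinge, were thus of either sign in nearly equal number, but not all of them are particular to the hinge. The study used nub, rn and vvl to place cells in the wing blade and at its periphery. It used zfh2 for that periphery and for the hinge. A cluster high in grn and Phk-3 was placed, as likely, in the anterior hinge. The cluster ES_2, also high in both and in Sb, was placed in the anterior hinge or the anterior lateral notum.

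In the notum, none of 6 lateral genes (median -0.40) was higher and 2 were lower, the nuclear receptor svp (-0.88 ± 0.27) and the Iroquois gene mirr (-0.37 ± 0.11), whereas ara and caup were not called (0.14 ± 0.16 and 0.10 ± 0.14). Of 10 genes listed for the medial notum, Sb was higher and Ance and the LIM homeobox gene tup were lower (tup -1.20 ± 0.31, edgeR adjusted p = 0.00569, on 24 UMIs in members). The study used Ance and tup for the medial notum, but Sb for the anterior lateral notum near the hinge. Of 11 genes of the posterior compartment and the Hedgehog pathway (median -0.46), hh (-0.87 ± 0.26) and the FGF ligand gene bnl (-0.88 ± 0.26) were lower and none was higher. The transcription factor en was not called (-0.46 ± 0.35), on 23 UMIs in members.

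Signalling genes moved in both directions. Of 15 Dpp pathway genes tested, 3 were higher and 2 lower. The BMP-binding protein cv-2 stood at 18.1, 128 and 171 CPM in members and at 25.1, 45.9 and 63.3 CPM in comparison cells, higher in 7 of 8 libraries (log2 fold change 1.32 ± 0.18, edgeR adjusted p = 3.41e-10). The target genes salr and salm were higher (0.64 ± 0.11 and 0.45 ± 0.13), while the ligand gene dpp (-1.01 ± 0.25, 8 of 8 libraries lower) and its target bi (-0.43 ± 0.10) were lower. Of 13 Wingless pathway genes, 4 were higher (vg, ct, the co-receptor arr with 0.67 ± 0.21, and the receptor fz2) and 2 were lower (the ligand Wnt4 with -1.93 ± 0.40 on 11 UMIs, and the feedback inhibitor nkd with -0.31 ± 0.10). For fz2, levels were 398, 719 and 923 CPM against 370.3, 474 and 557 CPM (0.58 ± 0.09, adjusted p = 3.58e-08), higher in 7 of 8 libraries. The ligand gene wg had 27 UMIs in members and was not called (-0.66 ± 0.31).

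Of 11 apical matrix genes, the zona pellucida protein genes tyn (0.80 ± 0.13) and mey (0.97 ± 0.27) were higher with Sb, and the only lower one was nub, a transcription factor that the list holds besides matrix genes. Of 16 ecdysone response genes, Phk-3 and ImpL2, a secreted insulin-binding protein (0.61 ± 0.10), were higher and none was lower. Of 11 actin bundle and planar polarity genes (median -0.18), the myosin heavy chain gene zip was lower (-0.29 ± 0.09) and none was higher. Of 16 cell cycle genes (median -0.05), the Cdc25 phosphatase gene stg was lower (-0.45 ± 0.14, edgeR adjusted p = 0.0348) and none was higher. Of 5 peripodial genes, drm and Antp were higher and Ance and hh were lower. Among genes of other tissues, 1 of 7 myoblast genes was lower (the perlecan gene trol, -0.73 ± 0.19), verm was higher and Gasp lower of 6 tracheal genes, and none of the 1 blood and 2 neural genes tested was called.

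With comparison cells matched to members on UMIs within each library, 3 per member, 70 genes were called of 1475 tested, 54 higher and 16 lower. Of the 56 higher genes 41 could be tested, of which 41 kept their sign and 39 were called again, and of the 58 lower genes 30 could be tested, of which 30 kept their sign and 15 were called. This alternative was chosen after the data were seen. Without 1151-GAL4 replicates 3 and 4, a setting also chosen after seeing the data, 32 genes were called, and of the 44 higher genes then tested 43 kept their sign and 22 were called, and of the 43 lower genes then tested 43 kept their sign and 7 were called. With only the cells that held 0 UMIs of the 4 myoblast genes, 84 genes were called, 42 higher and 42 lower. Of the higher genes 54 could then be tested, of which 53 kept their sign and 42 were called. Of the lower genes 54 could be tested, of which 54 kept their sign and 31 were called. Leaving out 1151-GAL4 replicate 3 alone left 60 calls and leaving out replicate 4 alone 53. DESeq2 called 45 genes, 33 higher and 12 lower, and with no filter on low counts 328 were called, of which 290 were lower. Among the called genes named above, DESeq2 did not call Antp, ImpL2, drm, emc, mirr, tup, dpp, hh, stg, svp, bnl, salm, arr, mey, zip, trol, verm, bi, ems, hth, nkd, vvl, E(spl)m7-HLH, E(spl)malpha-BFM, E(spl)mbeta-HLH, CG7702, CR43264 or Ssb-c31a, and it gave no adjusted p for CG17124, Gasp and Wnt4.

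At the threshold of 2 UMIs, Phk-3 reached 951 CPM (pooled over libraries, raw) in the 477 epithelial cells with 1 UMI of the 4 genes and 1460 CPM in the 146 members with exactly 2, beside 431 CPM in comparison cells and 1875 CPM in members with 3 or more. For grn the pooled levels of cells with 1 and 2 UMIs were 640 and 956 CPM, for mamo 1234 and 2004 CPM and for CG10625 205 and 320 CPM. Ance stood at 271 and 57.8 CPM. The cells just outside the rule thus lay between the comparison cells and the members for each of these genes.

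Members were then compared among themselves. Of the 469, 280 had at least 2 UMIs of CG34247 and CG13053 and none of CG13023, and are called CG34247/CG13053-led below, while 83 had at least 2 UMIs of CG13023 and none of the pair, and are called CG13023-led. Fewer than 3 libraries held 10 cells of both kinds, and 5 cells of each were present in 4 libraries, 1151-GAL4 replicates 3 and 4 and 1151>mCherry-RNAi replicates 7 and 8, with 15, 44, 5 and 6 CG13023-led cells against 80, 111, 14 and 17. Of 358 genes tested, 9 were called (2.51%), 2 higher and 7 lower in CG13023-led cells. Genes with few UMIs could not be tested with these cell numbers.

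Antp, a Hox gene of the thorax, had the largest difference of the 9. In CG13023-led cells it stood at 1111, 939, 889.5 and 2659.8 CPM in 1151-GAL4 replicates 3 and 4 and 1151>mCherry-RNAi replicates 7 and 8. In CG34247/CG13053-led cells of the same libraries it stood at 194, 223, 0 and 51.9 CPM. The groups did not overlap (log2 fold change 2.68 ± 0.35, edgeR adjusted p = 1.32e-06). For mamo the order was the opposite, with 667, 698, 1038 and 949.9 CPM against 2225, 3082, 3992.5 and 10791 CPM (-2.21 ± 0.19, adjusted p = 3.48e-11), again without overlap. The factor grn stood at 533, 824.5, 593 and 949.9 CPM against 1384, 1681, 2355 and 3216 CPM (-1.31 ± 0.22, adjusted p = 1.26e-04), without overlap, and CG43164 at 445, 520.1, 148 and 759.9 CPM against 1384, 1195, 1331 and 1660.1 CPM (-1.43 ± 0.25, adjusted p = 2.05e-04). In each of these genes all 4 libraries moved the same way. The CG13023-led values of 1151>mCherry-RNAi replicates 7 and 8 rest on 5 and 6 cells, and thus on few UMIs. Over all 8 libraries, CG13023-led cells held 138 UMIs of Antp, 94 of mamo, 107 of grn and 73 of CG43164. Pooled raw levels of these genes were 699, 476, 542 and 370 CPM in CG13023-led cells. In CG34247/CG13053-led cells they were 127, 2203, 1126 and 967 CPM. The levels by library are on the scale of the 358 genes tested and are not raw CPM.

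Lower in CG13023-led cells, in 4 of 4 libraries each, were also vvl (-1.20 ± 0.31), nej, the CBP acetyltransferase gene (-1.14 ± 0.31), Msp300, a nesprin gene (-0.48 ± 0.13), and heph, an RNA-binding protein gene (-0.44 ± 0.12). The noncoding RNA roX1, which takes part in dosage compensation in males, was higher in 3 of 4 libraries (0.79 ± 0.17, edgeR adjusted p = 0.00374), with 2356, 3108, 8895 and 6459.5 CPM against 2802, 1387, 3071 and 3839 CPM. Pooled raw levels of roX1 over all 8 libraries were 2121 CPM in CG13023-led and 1476 CPM in CG34247/CG13053-led cells. The sex of the larvae is not given, and its part in this comparison was not tested. CG10625 was not called (0.41 ± 0.34, adjusted p = 0.582), with levels that overlapped. The calls of vvl, nej, Msp300 and heph were lost with DESeq2 and without 1151-GAL4 replicate 3, 1151>mCherry-RNAi replicate 7 or replicate 8, that of heph also without 1151-GAL4 replicate 4. The call of roX1 was lost with DESeq2, with no filter on low counts and without 1151-GAL4 replicate 4, 1151>mCherry-RNAi replicate 7 or replicate 8.

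**Figure D3:**
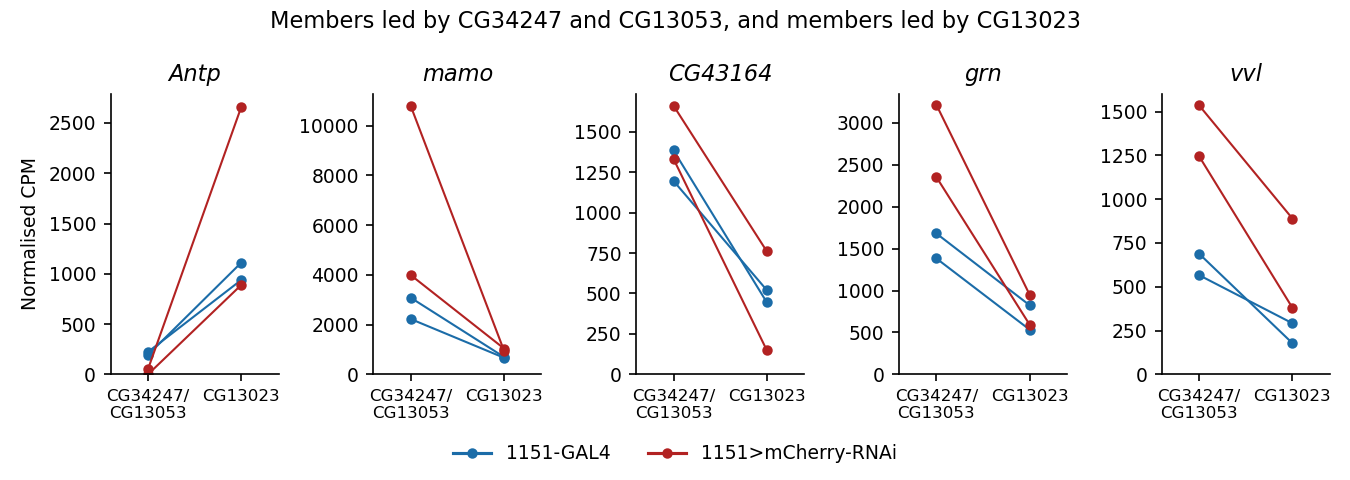
TMM-scaled CPM (y axes, from 0) of summed UMIs in members led by CG34247 and CG13053 and in members led by CG13023, with each line joining both kinds of a library, for the 4 libraries with at least 5 cells of each. Antp was higher and mamo, CG43164, grn and vvl were lower in CG13023-led cells in 4 of 4 libraries. CPM are taken over the UMIs of the genes tested, not of all genes.

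Each kind was also set against the comparison cells on its own, a choice made after seeing the data. Of the genes named above, Phk-3 was called higher in both, by 2.27 in CG13023-led and 1.37 in CG34247/CG13053-led cells on the log2 scale, and so was sca (2.01 and 0.75). Antp was higher by 1.92 in CG13023-led cells and stood at -0.53 in CG34247/CG13053-led cells, where it was not called, and drm, a zinc finger gene of the odd-skipped family, was higher by 2.34 in the former and lower by 1.05 in the latter. cpo was called in CG13023-led cells (2.61) and had 0.07 in the others. Conversely, grn (1.60), mamo (1.59) and cv-2 (1.80) were called higher in CG34247/CG13053-led cells and stood at -0.06, -1.03 and -1.87 in CG13023-led cells, not called. The fold changes of Antp and drm thus had opposite signs in both kinds, that of Antp being called in the CG13023-led cells and that of drm in each. Comparison cells followed the same rule in both comparisons, but the libraries were not the same. CG13023-led cells were fitted in 1151-GAL4 replicates 3 and 4 and 1151>mCherry-RNAi replicates 7 and 8, with at least 5 cells each. CG34247/CG13053-led cells were fitted in all wild-type libraries except 1151>mCherry-RNAi replicate 5, which held 7 of them, fewer than the 10 needed. Comparison cells of the libraries common to both fits served in both.

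Shares of cells with a UMI were also set at an equal depth of 400 UMIs. Antp was found in 27.5% of CG13023-led cells, 3.85% of CG34247/CG13053-led cells and 6.56% of comparison cells, and drm in 15.4%, 1.03% and 2.47%. For mamo the shares were 12.7%, 34.1% and 17.4%, and for grn 18.3%, 37.7% and 13.4%. Phk-3 was found in 42.1% of the former and 28.5% of the latter kind, and CG10625 in 21.4% and 17.7%, against 10.4% and 5.46% of comparison cells. These shares pool cells of all 8 libraries and carry no test.

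Members were further compared with epithelial cells that held at least 2 UMIs of sca and Ocho, genes of proneural clusters. There were 368 such cells, and 79 of them were members, which is 16.8% of members and 21.5% of sca/Ocho cells, beside 2.74% of the comparison cells. These shares are not at equal depth, as members had a median of 1806 and comparison cells of 854 UMIs. Thinned to 400 UMIs, sca was found in 6.46% of members and 2.79% of comparison cells. Members with at most 1 UMI of sca and Ocho were compared with sca/Ocho cells that held none of the 4 genes, in the 6 libraries with at least 10 cells of each, leaving out 1151>mCherry-RNAi replicates 5 and 7. Of 1129 genes tested, 19 were called (1.68%), 8 higher and 11 lower in members. The sca/Ocho cells were the deeper class in 6 of 6 libraries, with medians between 1666.5 and 3645 UMIs against 956 and 2147 UMIs in members.

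Several genes that distinguished members from comparison cells also did so here. Levels are on the scale of the 1129 genes tested in this comparison. cv-2 stood at 129, 172 and 186 CPM in members (lowest, median and highest of 6 libraries) and at 7.89, 44.1 and 53.7 CPM in sca/Ocho cells, without overlap (log2 fold change 2.27 ± 0.33, edgeR adjusted p = 1.98e-05). Phk-3 stood at 392, 1239 and 2953 CPM against 162, 333 and 549 CPM, higher in 6 of 6 libraries (2.15 ± 0.13, adjusted p = 5.5e-14). fz2 stood at 830.0, 901 and 999 CPM against 434, 519.6 and 810.5 CPM and did not overlap either (0.79 ± 0.13, adjusted p = 1.08e-04). Also higher were mamo (1.53 ± 0.19, 5 of 6 libraries), grn (1.41 ± 0.14, 6 of 6), Antp (0.86 ± 0.23, 4 of 6), the hinge and trunk factor tsh (0.81 ± 0.19, 5 of 6) and CG17919 (0.79 ± 0.18, 6 of 6).

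Lower in members than in sca/Ocho cells were Ance (-1.34 ± 0.23, 5 of 6 libraries), ss, a bHLH-PAS transcription factor (-1.24 ± 0.25), the serpin gene Spn43Aa (-0.997 ± 0.18), vvl (-0.97 ± 0.18, 5 of 6), CG34380 (-0.92 ± 0.20), the RNA-binding protein gene sm (-0.83 ± 0.17), CG13300 (-0.80 ± 0.17) and Imp, also an RNA-binding protein gene (-0.49 ± 0.13). CG10625 was not called, at 208, 512 and 861 CPM in members and 268, 469 and 907 CPM in sca/Ocho cells (-0.08 ± 0.18, edgeR adjusted p = 0.989), and both groups covered almost the same range. Of 40 ES_2 genes tested, 4 were higher and 1, trn, lower (median 0.20), of 12 hinge genes 3 and 1, and of 4 proneural genes none in either direction. DESeq2 called 7 genes, 5 higher and 2 lower, and without 1151-GAL4 replicate 3 edgeR called 8 and without replicate 4 it called 12.

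The same rule was applied to the 3 libraries labelled 1151>Ama-RNAi, which the choice of cells above did not use. In these libraries 6, 14 and 33 cells met the myoblast rule (replicates 1, 4 and 5), beside 144 to 1948 in wild-type libraries. The targeted gene Ama stood at 77.6, 92.4 and 68.3 CPM over all cells in these libraries and at 38.9 to 130 CPM in wild-type libraries, and in epithelial cells, where the driver is not described as active, at 78.2, 85.1 and 63.5 CPM and at 41.8 to 118 CPM. Its level over all cells thus does not set the labelled libraries apart. With so few cells of the myoblast rule in them, this level cannot show whether the knockdown worked. The study reports that Ama expression was lost in the remaining myoblasts and that an Ama transgene partly rescued the lethality. Of 2723 epithelial cells, 119 were members, 41, 28 and 50 by replicate, with median depths of 1231, 1584 and 1344 UMIs against 823, 812 and 789 UMIs in comparison cells. Of 3222 genes tested, 35 were called (1.09%), 24 higher and 11 lower.

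Phk-3 was again the gene with the lowest adjusted p. It stood at 1189, 1746 and 1415 CPM in members of replicates 1, 4 and 5 and at 239, 364 and 166 CPM in comparison cells, without overlap (log2 fold change 2.56 ± 0.15, edgeR adjusted p = 9.16e-15). grn stood at 881, 1622 and 2963 CPM against 348, 502 and 689 CPM (1.76 ± 0.13, adjusted p = 5.4e-12) and mamo at 1773, 5348 and 4141 CPM against 944, 1449 and 1165 CPM (1.58 ± 0.12, adjusted p = 3.25e-12). In both genes every member value lay above every comparison value.

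Further genes called higher in the libraries labelled 1151>Ama-RNAi were E5 (1.76 ± 0.34), the transmembrane protein gene tinc (1.71 ± 0.41), sca (1.45 ± 0.24), ct (1.43 ± 0.31), cv-2 (1.43 ± 0.32), the autophagy regulator gene DOR (1.42 ± 0.33), ems (1.33 ± 0.34), ImpL2 (1.21 ± 0.16), fz2 (1.10 ± 0.14), tsh (0.86 ± 0.20), Antp (0.85 ± 0.18) and Dl (0.61 ± 0.13). Antp stood at 515, 312 and 313 CPM against 257, 145 and 216 CPM, without overlap. CG10625 did not pass here, with 263, 62.4 and 769 CPM against 116, 189 and 386 CPM (0.72 ± 0.23, edgeR adjusted p = 0.156), and was lower in members of replicate 4.

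Ance was nearly absent from members of these libraries, with 0, 1 and 1 UMIs in replicates 1, 4 and 5, beside 296 to 389.6 CPM and 1086 UMIs in comparison cells (edgeR adjusted p = 3.68e-11). nub had 4 UMIs in members and 274 in comparison cells (adjusted p = 0.00975), dpp 3 and 212 (adjusted p = 0.0271) and the FGF ligand gene ths 15 and 516 (log2 fold change -1.58 ± 0.34). CG13044 had 0 UMIs in members and 167 in comparison cells (adjusted p = 0.00509), CG12880 2 and 207 (adjusted p = 0.0186), CG30069 5 and 268 and the odorant-binding protein gene Obp99a 5 and 411. vvl stood at 1109, 405 and 247 CPM against 1062, 974 and 1218 CPM (-0.97 ± 0.22), called although replicate 1 was slightly higher. DESeq2 called 11 genes, 10 higher and 1 lower, and without replicate 4 edgeR called 8.

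Of the 56 genes called higher in wild type, 52 could be tested in the libraries labelled 1151>Ama-RNAi. Of these, 48 had the same sign (92.3%) and 22 were called. Of the 58 genes called lower, 54 could be tested, 45 had the same sign (83.3%) and 7 were called. Among the genes not called in wild type, 57.8% had the same sign, and none of the 114 was called in the opposite direction. The median log2 fold change of the higher genes was 0.66 in wild type and 0.69 in the labelled libraries, and that of the lower genes -0.66 and -0.52.

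**Figure D4:**
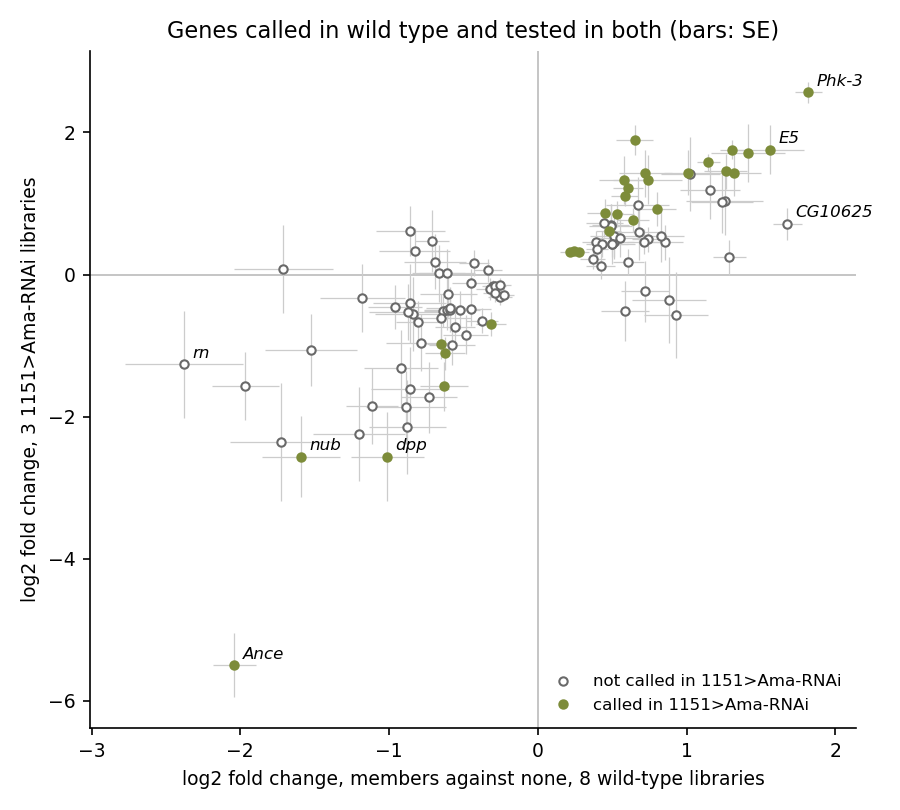
Log2 fold change of members against comparison cells in the 8 wild-type libraries (x axis) and in the 3 libraries labelled 1151>Ama-RNAi (y axis), for the genes called in wild type and tested in both, with SE bars and filled points for genes called in both. Phk-3 lies at 1.82 and 2.56, Ance is the lowest point (2 UMIs in members of the labelled libraries, so that its fitted value is no measured fold), and 48 of 52 higher and 45 of 54 lower genes share the sign.

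Both wild-type lines were then compared for the contrast of members and comparison cells, with a class by genotype term in edgeR. Of 3634 genes, 26 were called (0.715%), 19 of them ribosomal protein genes, and the median difference of all genes (1151>mCherry-RNAi minus 1151-GAL4) was -0.23 on the log2 scale. DESeq2 called 0 genes, with a median of -0.04, against 350 at an unadjusted p below 0.05 in edgeR, and leaving out a library gave between 1 (without 1151-GAL4 replicate 3 or 4) and 38 calls. The DESeq2 setting changes the test and the scaling together, and which of them moved the count was not tested. Of the 114 genes called between members and comparison cells, 4 were among them, mamo, vvl, CG1890 and the noncoding pncr002:3R, and the values of the lines below are of each line fitted alone. The contrast of mamo was smaller in 1151>mCherry-RNAi (1.03) than in 1151-GAL4 (1.38), a difference of -0.49 ± 0.12 that is -0.26 relative to the median of all genes (edgeR adjusted p = 0.0114). That of vvl was more negative in 1151>mCherry-RNAi (-1.09) than in 1151-GAL4 (-0.47), a difference of -0.82 ± 0.19, or -0.59 relative to the median (adjusted p = 0.00801). Phk-3 was not called, with 1.89 in 1151-GAL4 and 1.90 in 1151>mCherry-RNAi. In 1151-GAL4 alone 123 genes were called and in 1151>mCherry-RNAi alone, with 92 members in all, 18.

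Members made up 5.27%, 5.56%, 5.23% and 5.67% of epithelial cells in 1151-GAL4 replicates 1 to 4 and 3.96%, 4.15%, 2.70% and 2.05% in 1151>mCherry-RNAi replicates 5 to 8. All 4 shares of 1151-GAL4 lay above all 4 of 1151>mCherry-RNAi, with means of 5.43% ± 0.22 (SD, n = 4) and 3.22% ± 1.01 (SD, n = 4) and a difference of 2.22 percentage points. The two-sided exact permutation test gave p = 0.0286, the smallest it can give with 4 against 4 libraries, and p = 0.0571 adjusted over the 2 share comparisons. Median depths of epithelial cells were 1013 to 1292.5 UMIs in 1151-GAL4 and 555 to 938.5 UMIs in 1151>mCherry-RNAi. With cells thinned to 400 UMIs the shares were 1.90% ± 0.56 and 1.66% ± 0.40, which overlapped and differed by 0.24 percentage points (exact p = 0.543). At equal depth a difference in share was not detectable, and 95% Wilson intervals of single libraries reached from 0.459% to 4.68%.

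In the libraries labelled 1151>Ama-RNAi, members made up 4.05%, 5.29% and 4.23% of epithelial cells (mean 4.52% ± 0.67, SD, n = 3), beside 4.32% ± 1.36 (SD, n = 8) in wild type. The difference of 0.20 percentage points was smaller than the spread between libraries (two-sided exact permutation test, p = 0.836). Thinned to 400 UMIs, the means were 2.13% and 1.78% (exact p = 0.279). Without 1151>Ama-RNAi replicate 4 the difference was -0.18.

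**Figure D5:**
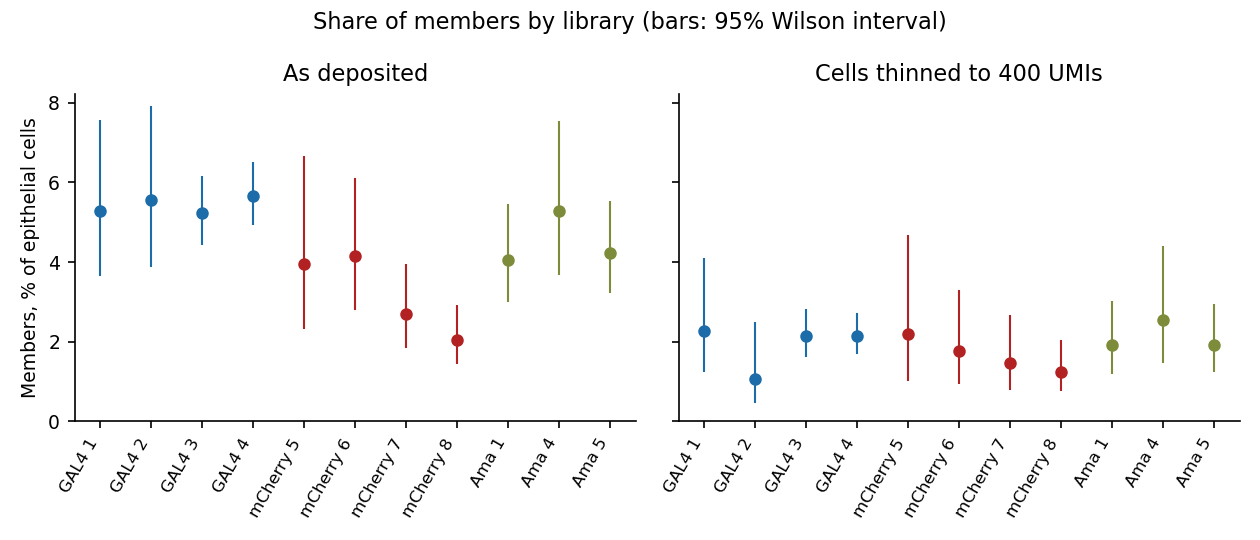
Share of members among epithelial cells in percent (y axis) in each of the 11 libraries, as deposited (left) and with cells thinned to 400 UMIs (right), with 95% Wilson intervals that cover counting error only. On the left the 4 libraries of 1151-GAL4 lie between 5.23% and 5.67% and those of 1151>mCherry-RNAi between 2.05% and 4.15%, and on the right both lines overlap.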

How the data were processed

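The deposited values are raw UMI counts of each gene in each barcode, which the authors made with STAR on BDGP6 and DigitalExpression (Drop-seq tools), not normalised. Barcodes were kept by detected genes only, and no doublets were removed. The members, the 22 gene lists and the tests were chosen with earlier results of these data known. Counts were summed by library and class and tested with edgeR 4.0.16 in R 4.3.3 (TMM, filterByExpr, library as a block). A library was used where it had at least 10 cells of both classes (5 between kinds of member and for CG13023-led cells against comparison cells). The 12 genes of the rule, and sca and Ocho against sca/Ocho cells, were not tested. Per comparison, the text names the 10 called genes that moved furthest up and the 10 furthest down with every library alike, and up to 4 called genes of a list. Other genes, among them mamo, vvl, zfh2, hth, bi, tsh, fz2, nkd, ems, tinc and roX1 and those not called, were named after their values were seen. Alternatives included DESeq2 1.42.0, and the tests were tried on simulated counts. Shares were compared by exact permutation over libraries (scipy 1.17.1), with 95% Wilson intervals for counting error only. Positions come from an Ensembl annotation of BDGP6.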

Additional observations from a re-analysis of the deposited data

Results flagged for a closer look

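In 5 of 50 groups of 4 libraries examined, the level of a gene in members of a library stood apart from the other 3 by a Dixon test at 95%, which chance does in about 1 group in 20. CG41520 stood apart in 1151>mCherry-RNAi at 96.2 CPM, CG7702 in 1151-GAL4 at 174 CPM, Tsp in 1151>mCherry-RNAi at 19.2 CPM, dpp in 1151-GAL4 at 15.9 CPM (replicate 4) and CR43264 in 1151>mCherry-RNAi at 36.2 CPM.

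Between both wild-type lines, the contrast of members and comparison cells differed for mamo by -0.49 and for vvl by -0.82 (1151>mCherry-RNAi minus 1151-GAL4, log2 scale, edgeR class by genotype term), and DESeq2 called neither.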

How the results depend on the processing

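Members were few and mostly from 2 libraries, and low genes rest on few UMIs. The 114 calls of members against comparison cells became 45 with DESeq2, 328 with no filter on low counts, 69 with at least 2 of the 4 genes detected, 18 in 1151>mCherry-RNAi libraries only, and 53 to 108 leaving out a library in turn. Alternatives chosen after seeing the data gave 70 (members with CG34247 and CG13053 and no CG13023), 20 (members with CG13023 and neither of these), 70 (comparison cells matched on UMIs) and 32 (without the 2 deepest libraries). Between the first 2 of these, signs turned for drm (-1.05) and Antp (-0.53) in the former and for grn (-0.056), cv-2 (-1.87), salr (-0.70), salm (-0.15) and arr (-0.066) in the latter. Against sca/Ocho cells, 19 calls became 7 with DESeq2, 33 with no filter and 8 to 20 leaving out a library. Between kinds of member, 9 became 4, 20 and 6 to 11, between wild-type lines 26 became 0, 3 and 1 to 38, and in the libraries labelled 1151>Ama-RNAi 35 became 11 with DESeq2 and 8 to 39 leaving out a library. Both classes come from the same library, so the replicate block pairs them, and without the replicate block the counts fell from 114 to 13, from 19 to 1, from 9 to 2 and from 35 to 2.

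The difference in share between wild-type lines was 1.80 points with 3 UMIs as the threshold, 0.24 at 400 UMIs and 1.83 to 2.53 leaving out a library. The exact permutation test then gave p = 0.0571 in each case, the smallest it can give with 3 libraries against 4. The shares of both lines did not overlap in any of these cases. The difference in share of the libraries labelled 1151>Ama-RNAi from wild type was -0.18 to 0.44 leaving out a library. It turned negative without 1151>Ama-RNAi replicate 4 (-0.18), 1151>mCherry-RNAi replicate 7 (-0.03) and replicate 8 (-0.12). It was -0.0017 without barcodes 1 base from a deeper barcode, a setting chosen after seeing the data. The causes were not tested.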

Other observations

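Members that held CG14598 and none of the other 3 genes, 32 cells with a median of 3066 UMIs, had pooled raw levels of 205.5 CPM of E5, 137 CPM of ems and 5780.0 CPM of hth, beside 53.9, 42.03 and 2471 CPM in CG34247/CG13053-led members. Their Phk-3 level was 1045 CPM, above the 431 CPM of comparison cells. The 53 members that held CG13023 and at least 1 of CG34247 and CG13053 had 3505 CPM of Phk-3 and 528 CPM of Antp, and a median of 2723 UMIs. Of the CG34247/CG13053-led members, which hold at least 2 UMIs of the pair and no CG13023, the 147 with both genes had 2733 CPM of mamo, the 101 with CG13053 and no CG34247 had 1553 CPM, and the 32 with CG34247 and no CG13053 had 897.5 CPM, beside 818 CPM in comparison cells. These are sums over cells of several libraries with no test, and the median depth of each kind differs.

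Beside mamo and vvl, the genes called between wild-type lines included pncr002:3R (-2.24, 0.88 in 1151-GAL4 and -1.20 in 1151>mCherry-RNAi) and the phosphodiesterase gene dnc (-1.25). Obp99a (4.92) and CG1890 (2.07) were the 2 with a positive difference. The 19 ribosomal protein genes ranged from RpL6 (-0.50) to RpS15 (-0.34), which is -0.27 and -0.11 relative to the median of all genes. With each line fitted alone, RpL6 stood at 0.14 in 1151-GAL4 and -0.18 in 1151>mCherry-RNAi, and RpS15 at 0.08 and -0.08.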
